A study of Physcomitrium patens with 8 samples.

Results

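The 100 genes with the most reads in the untreated wild-type library of the moss Physcomitrium patens are described here, out of 26610 genes in the deposited table. They were chosen by their level in that 1 library alone. Every comparison with that library is therefore a description and carries no test. Rank 98 had a deposited value of 28095.3 (Phpat.019G046200), rank 99 had 28091.5 (Phpat.019G047100) and rank 100 had 27638.2 (Phpat.019G072400). The first genes outside the list, Phpat.003G017900, Phpat.001G034400 and Phpat.004G020500, had 27359.4, 27231.1 and 27066.2, so the boundary falls in a run of close values.

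RNA-seq was made from 6-day subcultures of Gransden strain chloronemata, the chloroplast-rich filaments of a young moss. Crossing 2 genotypes with 4 conditions gave 8 libraries, each of RNA bulked from 3 biological replicates. Wild type (WT) was set against the knockout labelled PpanrKO (KO below), in a gene that the series title calls an ABA response regulator. The conditions were an untreated control, 1 h on ABA (1e-05 M), 1 h on mannitol (10% w/v), and slow drying in a desiccator down to a loss of 70% in fresh weight (dehydration below). The sources used here state neither how many independent KO lines were used nor a mock transfer of control tissue. With 1 library per group, a difference between 2 libraries has no replicate check.

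Plants under water stress make the hormone abscisic acid (ABA), and mannitol outside a cell draws water out of it by osmosis. In green plant tissue a small number of nuclear genes, many of them for photosynthesis, usually supplies a large share of the polyadenylated RNA. The deposited IDs carry no gene names, so the genes below are described by ID, position and level, and no function or sequence is given.

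The libraries held between 22516957 and 38767634 reads. A share of reads depends on the reads of all other genes in its library, and the deposited normalized value carries the authors' scaling, so the scale is named with each value. The WT ABA library stood apart in that scaling: its deposited values summed to 48399900, against 25092500 to 36620000 in the other 7. In bulk tissue, fewer cells of a type and less RNA per cell cannot be told apart.

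The list took 34.9% of the reads in WT control, 31.0% in WT ABA, 21.4% in WT mannitol and 28.9% in WT dehydration. The KO shares were 35.0%, 32.6%, 21.6% and 28.6% in the same order. The exact (Clopper-Pearson) 95% interval of the share in WT control ran from 34.88% to 34.91%, and like the other intervals here it covers counting error only. The lowest shares were those of both mannitol libraries, and the shares of the 2 genotypes lay within 2 percentage points of each other in every condition.

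**Figure D1:**
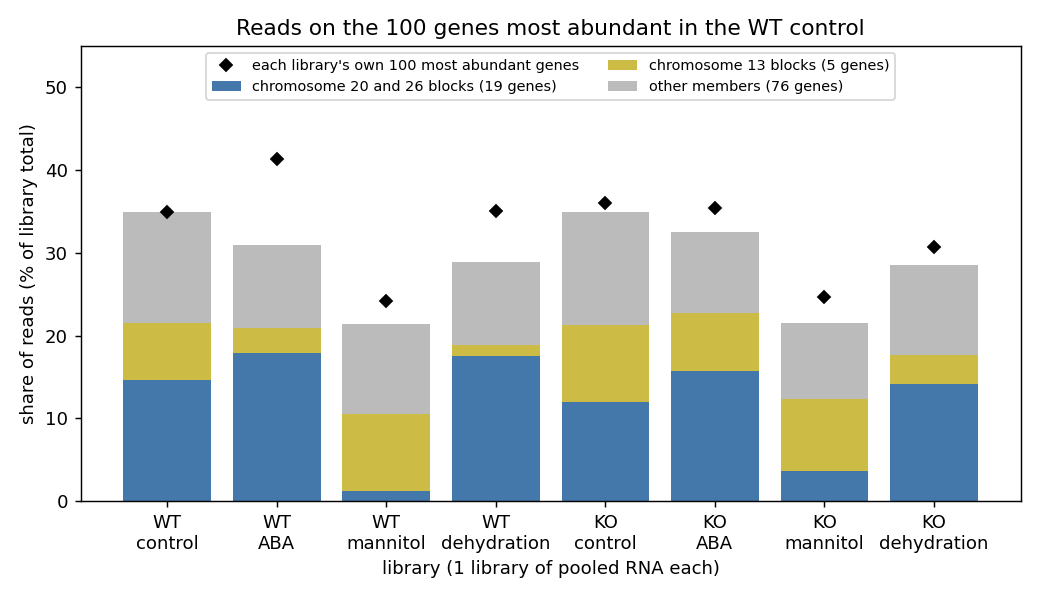
Share of reads in each of the 8 libraries (vertical axis, % of library total) taken by the 100 members, stacked by position. Diamonds give the share of each library's own 100 most abundant genes: the 2 coincide in WT control by the choice of members, and lie furthest apart in WT ABA (31.0% against 41.3%).

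Untreated KO tissue used nearly the same abundant genes, with 84 of the 100 members among its own 100 most abundant. The treated KO libraries kept 70 with ABA, 66 with mannitol and 77 after dehydration. The treated WT libraries kept 50, 62 and 55 in the same order. In all 8 libraries, 19 members stayed among the 100 most abundant, and 5 were there in WT control only. The 100 genes that were most abundant in WT ABA itself took 41.3% of its reads, 10.3 percentage points more than the members, whereas in WT mannitol the gap was 2.77 points (24.2% against 21.4%). In WT ABA, 187 genes supplied 50% of the reads, and in WT mannitol 823 did. The next 100 genes in WT control had lower shares in every other library too, from 7.93% in WT control to 4.70% in WT dehydration.

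Neighbouring genes made up much of the list. With members within 100 kb of each other on 1 chromosome joined into a block, 70 members lay in 22 blocks. The next 100 genes by rank were much the same in this respect, with 60 in 22 blocks. Chromosome 20 held 19 members, chromosome 1 held 11, chromosome 2 held 8 and chromosome 13 held 7. Members whose reads lay within 5% of a second gene's in all 8 libraries numbered 43, against 32 of the next 100 genes and 1.45% of all 19821 genes tested. Reads of near-identical copies may have been shared between such genes by the counting, and the copies cannot be told apart here. An older V1.6 gene model was given for 55 members, against 72 of the next 100 genes and 77.9% of all genes tested. Members overlapped a gene on the opposite strand in 15 cases, against 3 of the next 100 genes and 5.33% of all genes tested. The sources used here do not state whether counting used strand, so the reads of such overlapping genes cannot be told apart. Phpat.016G058700 (minus strand) lies within Phpat.016G058600 (plus strand), and their reads were at most 0.189% apart in all 8 libraries. Library totals here are sums over genes, so a read counted at several genes would enter totals and shares several times. Whether reads were counted so was not tested.

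The deposited values are not divided by gene length. Per kb of gene span in WT control (introns included, since exons are not given), the members ran from 7977 to 416439 reads, with a median of 21889. By that scale 69 of them remained among the 100 highest and the lowest stood at rank 205.

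The start of chromosome 20 carried the most reads. Of 43 genes between positions 18211 and 242439 (build V3.0), 17 were members, and the other 26 ranked from 113 to 18059 in WT control. With 2 members at the start of chromosome 26 (1627 to 4444), which overlap each other on opposite strands, these 19 genes took 14.7% of the reads in WT control. Of the 19, 11 had spans of 2809 to 2819 bp, and 8 of those 11 had a near-equal partner.

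These 19 genes took 14.7% of the reads in WT control, 17.9% with ABA, 1.28% with mannitol and 17.6% after dehydration. In KO they took 11.9%, 15.7%, 3.67% and 14.1% in the same order. Both mannitol libraries were thus far below the other 6, and the other 6 ran from 11.9% to 17.9%. In KO the median member of the group was 4.13-fold lower with mannitol than in the control (log2 difference of value + 10 of -2.05), and all 19 were at least 2-fold lower. The whole list's share in KO mannitol minus that in KO control was -13.4 percentage points, made up of -8.28 from these 19 genes, -0.60 from the chromosome 13 genes and -4.52 from the remaining 76. The remaining 76 took 13.4%, 10.0%, 10.8% and 10.0% of all reads across the WT control, ABA, mannitol and dehydration libraries, so for them WT mannitol was not the lowest. Their KO shares were 13.7%, 9.79%, 9.17% and 10.9%. Within the mannitol libraries, the 19 genes were higher in KO than in WT by a median of 1.33 on the log2 scale.

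Phpat.020G002700, the gene of rank 1 (chromosome 20, 158748 to 160374, minus strand), took 2.59% of the reads in WT control, 2.88% with ABA, 0.164% with mannitol and 3.02% after dehydration. In KO its shares were 2.07%, 2.57%, 0.525% and 2.27% in the same order. It was the most abundant gene in WT control and had its lowest shares in the 2 mannitol libraries, at rank 34 in WT and 7 in KO. Phpat.020G003200, of rank 2 (181799 to 183425, minus strand), differed from it by at most 0.0402% of reads in any library, and its start lay 23051 bp away. Each is overlapped on the plus strand by another member, Phpat.020G002800 and Phpat.020G003300, whose starts also lay 23051 bp apart. The first 2 genes have near-equal reads, whereas Phpat.020G002800 and Phpat.020G003300 do not by the 5% limit, with 292083 and 269627 reads in WT ABA.

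The next most abundant genes were on chromosome 13, where 5 members lay in 2 blocks (11432214 to 11442223 and 11615136 to 11679572) with 172.9 kb between them. They held ranks 3 to 6 and 10 in WT control. Together they took 6.82% of the reads in WT control, 3.07% with ABA, 9.30% with mannitol and 1.35% after dehydration. In KO they took 9.32%, 7.02%, 8.73% and 3.59%. They were lowest after dehydration in both genotypes. In both mannitol libraries, where the chromosome 20 genes had their lowest shares, they held ranks 1 to 5.

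Phpat.013G054400, the gene of rank 3 (chromosome 13, 11615136 to 11618277, plus strand), took 1.62%, 0.733%, 2.22% and 0.324% of reads across the WT control, ABA, mannitol and dehydration libraries. In KO it took 2.21%, 1.67%, 2.07% and 0.850%. Against KO control, the median of the 5 genes was 3.70-fold lower after dehydration in KO (log2 difference -1.89, members from -1.91 to -1.85), and within 2-fold with ABA (-0.40) and mannitol (-0.65). After dehydration their KO values exceeded those of WT by a median of 2.42-fold.

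**Figure D2:**
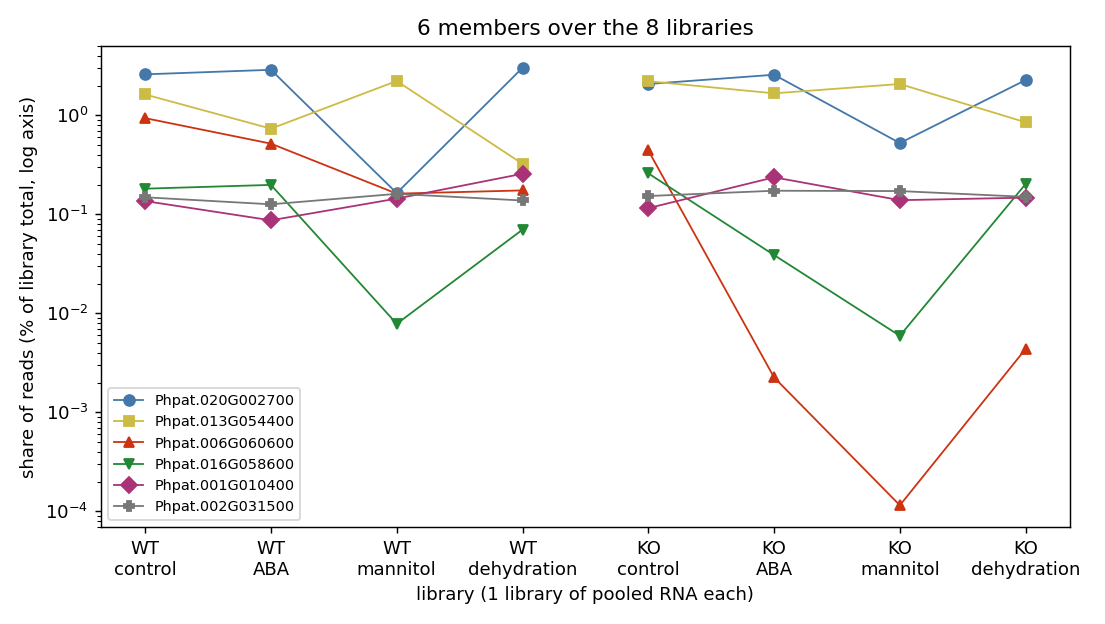
Share of reads of 6 members in the 8 libraries (log axis, % of library total, 1 library of pooled RNA per point, WT and KO joined separately). The chromosome 20 gene is lowest with mannitol in both genotypes, the chromosome 13 gene is lowest after dehydration, and Phpat.006G060600 spans the widest range, from 0.937% in WT control to 0.000115% in KO mannitol.

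Levels of the members spread more widely over the 8 libraries, by the median, than those of all genes tested. On the deposited value + 10, the highest level was a median of 6.74 times the lowest for members, and 3.20 times for all genes tested. Adding 10 narrows the ranges of low genes, and the 8 libraries include WT control, which chose the members. Of the members, 7 kept within 2-fold, 41 spanned over 10-fold and 4 spanned over 100-fold. The steadiest was Phpat.002G031500, whose deposited values ran from 37465 in WT control to 63381 in KO ABA, a 1.69-fold range. Phpat.021G012100 spanned 1.73-fold and Phpat.018G025700 spanned 1.83-fold. On the deposited scale 41 members were highest in WT ABA and 38 in KO control, and 38 were lowest in WT dehydration, 27 in WT mannitol and 20 in KO mannitol. No share of all genes tested is given for these counts or for those of ranges above, so they describe the list alone. They depend on the deposited scaling, and near-equal genes count separately in them.

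**Figure D3:**
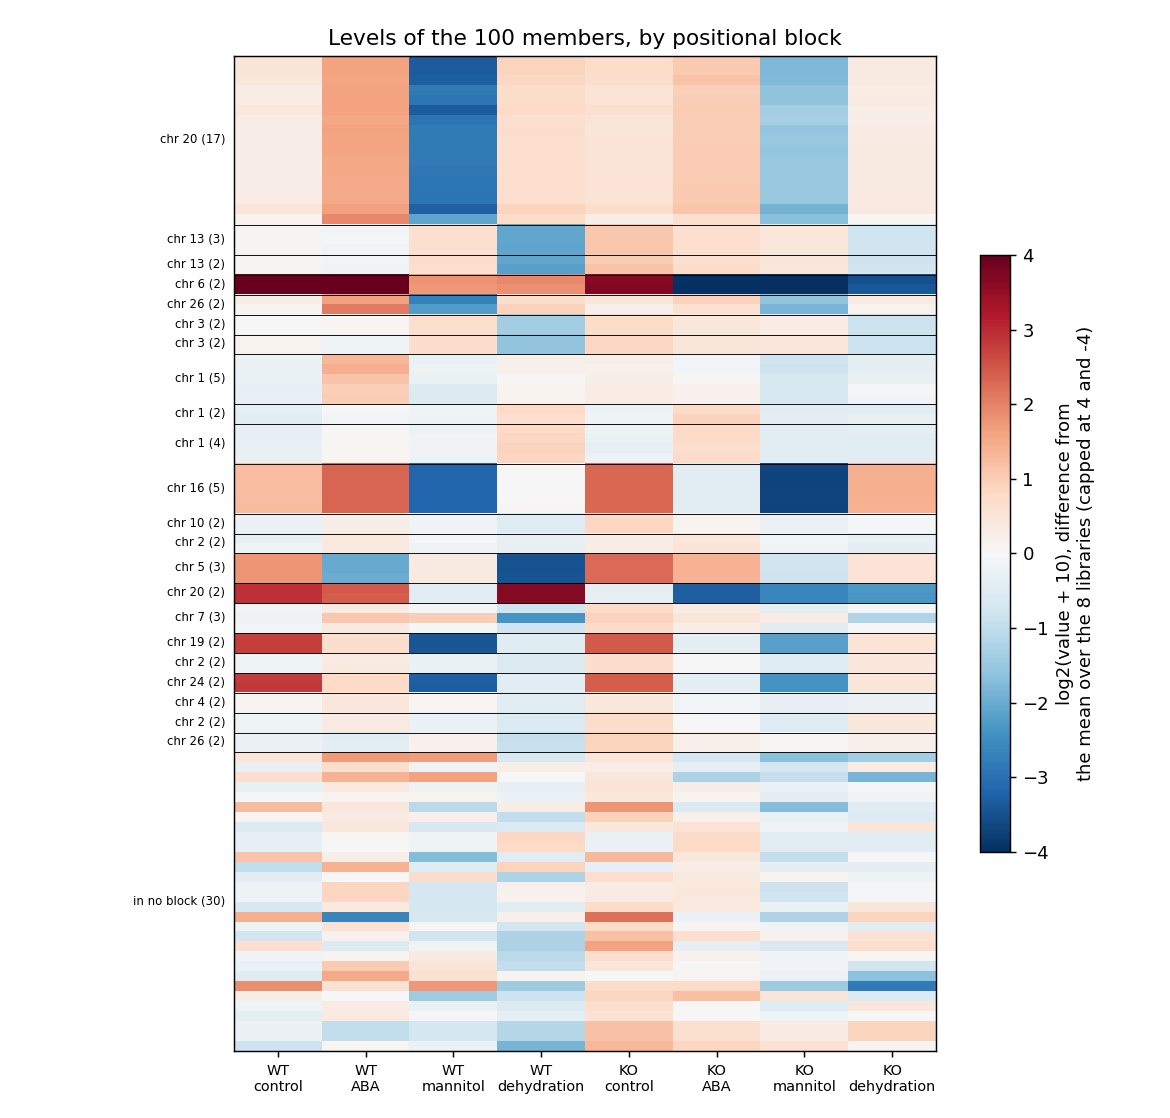
Level of each of the 100 members in each of the 8 libraries, as log2(value + 10) minus the gene's own mean over the libraries (colour, capped at 4 and -4). Rows are members grouped by positional block, with the chromosome and the number of members at the left, and genes of 1 block mostly share 1 pattern, as in the 17 genes of the chromosome 20 block.

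The 2 members with the widest ranges were the neighbours Phpat.006G060600 and Phpat.006G060700 (chromosome 6, 10934034 to 10940656, minus and plus strand), of ranks 8 and 13. Phpat.006G060600 had 244711 reads in WT control, 155086 with ABA, 58426 with mannitol and 39259 after dehydration. Its KO counts were 145375 reads in the control but 874 with ABA, 41 with mannitol and 1192 after dehydration. The KO control library thus sat with the WT libraries, and the 3 treated KO libraries lay far below all of them. In KO this gene was 194-fold lower with ABA than in the control (95% counting interval 182 to 208), 5550-fold lower with mannitol (4091 to 7735) and 144-fold lower after dehydration (136 to 152). Phpat.006G060700 had 110031 reads in KO control and 599, 30 and 932 in the treated KO libraries.

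A block of 5 genes on chromosome 16 (9168353 to 9233649) had shares that moved nearly as 1 gene. The middle gene of the 5 by share took 0.181% of the reads in WT control, 0.198% with ABA, 0.00782% with mannitol and 0.0700% after dehydration. In KO the middle share was 0.259%, 0.0388%, 0.00592% and 0.202%. Both mannitol libraries were lowest, and KO ABA was below KO control while WT ABA was close to WT control. In KO the median of the 5 genes was 62.9-fold lower with mannitol and 6.62-fold lower with ABA. Near-equal reads joined 4 of these 5 genes.

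Smaller groups had other patterns, and all of the groups by position were drawn after their values were seen. The 4 genes in neighbouring pairs on chromosomes 19 and 24 together took 0.482% of the reads in WT control, 0.0612% with ABA, 0.00613% with mannitol and 0.0462% after dehydration. In KO the same 4 genes took 0.260%, 0.0364%, 0.0144% and 0.0982%, so that the control was the highest library and mannitol the lowest in each genotype. The 3 genes of a block on chromosome 5 (9049979 to 9096457) together took 0.416%, 0.0158%, 0.144% and 0.00997% of reads across the WT control, ABA, mannitol and dehydration libraries. In KO they took 0.408%, 0.218%, 0.0701% and 0.178%. With ABA and after dehydration the WT libraries were below KO, and with mannitol the KO library was below WT.

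Another group was 8 genes that shared a pattern, most of them near 2 Mb on chromosome 1. They took 1.36%, 0.908%, 1.40% and 2.73% of the reads in the WT libraries and 1.01%, 2.03%, 1.27% and 1.26% in the KO libraries, in the order control, ABA, mannitol, dehydration. The highest library was dehydration in WT and ABA in KO. In KO with ABA, Phpat.001G010400 had 91689 reads against 37975 in the control, a log2 difference of 1.05, and Phpat.001G010600 had 103626 against 43416, a difference of 1.03.

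The KO libraries other than the control were compared with KO control, which played no part in the choice of members. Genes chosen for a high level in untreated tissue lean towards lower levels in treated tissue by that choice, so the counts below describe the members and are not read as a response of the list. With ABA, 7 members had KO values at least 2-fold above the control and 18 at least 2-fold below, as did 8.29% and 4.97% of all genes tested. The median log2 difference was -0.38 for the members and 0.23 for all genes. With the scaling of edgeR (TMM), 0 members were higher and 23 lower, against 4.36% and 7.08% of all genes tested.

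With mannitol, 0 members were 2-fold or more above KO control and 57 were 2-fold or more below, against 9.1% and 9.56% of all genes tested. On the deposited scale the member medians were -1.15 against 0.13 for all genes, and every member was below its KO control value. The nearest to its control was Phpat.010G069200, whose deposited value was 0.939 times that of the control. As a share of reads this gene was higher with mannitol, at 0.239% against 0.176% in KO control. With reads scaled to the library total, 17 members were above their KO control value. On that scale 0 were 2-fold or more above and 41 were 2-fold or more below, against 27.4% and 5.25% of all genes tested. After dehydration 0 members were higher and 33 were lower, against 1.97% and 10.8% of all genes tested, with medians of -0.61 and -0.25. On the deposited scale, Phpat.005G051300 and Phpat.007G030300 were the only 2 members above their KO control value after dehydration, by 0.08 and 0.05 in log2. That count depends on the scaling: it was 26 with median-of-ratios scaling, 26 with TMM and 42 with reads scaled to the library total.

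**Figure D4:**
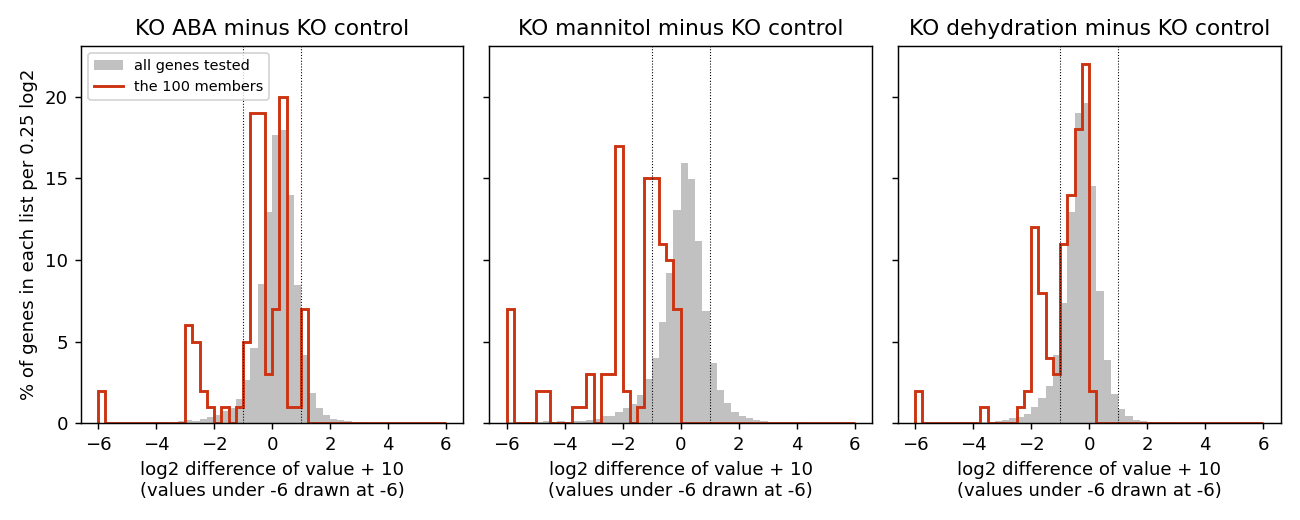
Distribution of the log2 difference of value + 10 between each treated KO library and KO control, for the 100 members (red line) and for all 19821 genes tested (grey), as % of each list per bin. Dotted lines mark 2-fold, and values under -6 are drawn at -6. With mannitol 57 members lie at or beyond the lower line and none beyond the upper.

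Over the 3 treatments together, 72 members lay at least 2-fold below KO control with at least 1 treatment, against 16.9% of all genes tested, and 7 lay at least 2-fold above it with at least 1, against 14.0%. The most frequent pattern was lower with mannitol only, in 33 members against 4.03% of all genes tested, and 19 of those 33 were the genes of the chromosome 20 and 26 blocks. Lower after dehydration only held for 15 members against 5.69%, among them the 5 genes of chromosome 13. Lower with all 3 treatments held for 12 members against 2.5%, and 21 members stayed within 2-fold with all 3 against 69.7%. Lower with mannitol and dehydration but not ABA held for 6 members against 1.68%, and lower with ABA and mannitol but not dehydration for 6 against 1.22%. No member was lower with ABA only (0.737% of all genes tested), lower with ABA and dehydration alone (0.429%) or higher with all 3 (0.792%). The 3 comparisons share the KO control library.

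KO was then set against WT within each treatment, in libraries that also played no part in the choice. With ABA, KO exceeded WT at least 2-fold in 8 members and WT exceeded KO at least 2-fold in 24, against 26.2% and 12.7% of all genes tested. With reads scaled to the library total the split turned to 25 higher and 15 lower, against 39.5% and 9.32% of all genes tested. Phpat.005G048300 had the largest difference upwards, with 29287 reads in KO ABA against 1616 in WT ABA, and deposited values 10.6-fold apart (95% counting interval 10.1 to 11.1). Phpat.006G060600 had the largest downwards, 303-fold (284 to 325).

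With mannitol the counts were 22 members higher in KO and 10 lower, against 7.43% and 10.1% of all genes tested. Of the 76 members outside the chromosome 20, 26 and 13 blocks, 5 were higher (6.58%) and 10 lower (13.2%). The largest difference upwards was that of Phpat.020G001100, with 68309 reads in KO against 16658 in WT, 3.80-fold (3.74 to 3.87). Phpat.006G060600 was 1537-fold lower in KO (1133 to 2142). After dehydration they were 26 higher and 15 lower, against 22.7% and 12.0% of all genes tested. With median-of-ratios scaling 14 were higher and 18 lower, near the 16.4% and 16.02% of all genes tested. Phpat.005G048500, with 16318 reads in KO against 745 in WT, was 16.7-fold higher (15.5 to 18.0), and Phpat.020G059500, with 917 against 45242, was 64.9-fold lower (60.8 to 69.3).

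A test was possible where a difference repeats across libraries. The 6 treated libraries were fitted with limma across all 19821 genes as treatment plus genotype, which leaves 2 residual degrees of freedom. The residual also holds any genotype-by-treatment difference. KO differed from WT over the 3 treatments (Benjamini-Hochberg adjusted p under 0.05) in 7 of the 100 members, 2 higher and 5 lower, against 5.6% and 6.74% of all genes tested, or 12.3% in either direction. The members' share is not above that background, and at an unadjusted p under 0.05 the members passed in 13 cases against 33.1% of all genes tested.

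The 5 members that fell in KO were the chromosome 6 neighbours, a pair of neighbours on chromosome 20 (10735647 to 10745075, far from the block at its start) and 1 gene on chromosome 8. Phpat.006G060600 had a KO minus WT log2 difference of -7.94 ± 0.84 (SE, 3 libraries per genotype), with a limma adjusted p of 0.00476 and lower values in 3 of 3 treatments. Phpat.006G060700 differed by -7.79 ± 0.84 (limma adjusted p 0.00502), also lower in 3 of 3. The chromosome 20 pair, of ranks 66 and 73, differed by -4.63 ± 0.76 each, with lower values in 3 of 3 treatments. KO control was also below WT control (3305 against 36664 reads for the gene of rank 66). That pair of libraries is a description only, since WT control chose the members. The gene of rank 31 on chromosome 8 differed by -2.35 ± 0.33 (limma adjusted p 0.0121), with 16769, 28583 and 11314 reads in KO against 62403, 154816 and 30913 in WT for ABA, mannitol and dehydration.

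Phpat.019G046200 and Phpat.019G047100 were higher in KO by 1.55 ± 0.34 each (limma adjusted p 0.0393). Phpat.019G046200 had deposited values of 51884, 41187 and 61331 in KO against 16900, 20441 and 15143 in WT for ABA, mannitol and dehydration. The reads of these 2 genes lay within 5% of each other in every library, so they count as 1 measurement. Their adjusted p was 0.0663 in the edgeR quasi-likelihood test of recovered reads, and their call was also lost with both other scalings. All 7 calls were lost when genes of low level were kept in the fit. With all 8 libraries in the limma fit, the chromosome 6 genes had adjusted p of 0.0628 and 0.0642 and the chromosome 8 gene 0.0743, so their calls were lost. When either ABA library was left out, only the chromosome 6 calls remained. The chromosome 19 calls were also lost when either dehydration library was left out. Leaving out WT or KO of a treatment gives the same KO minus WT estimate, so the 2 are 1 check.

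**Figure D5:**
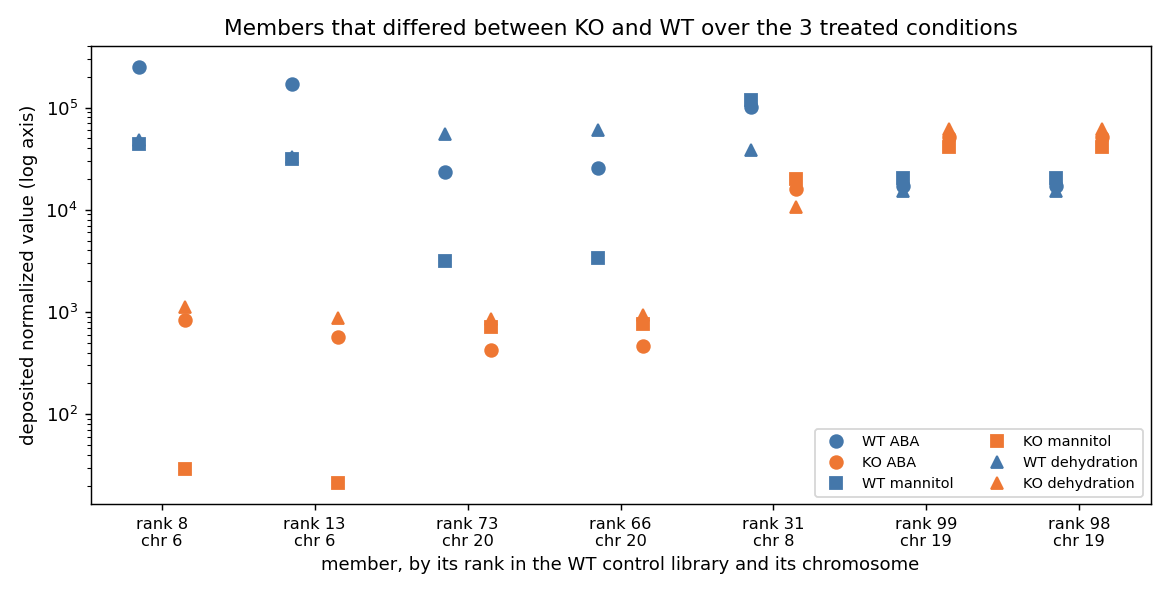
Deposited normalized values (log axis) of the 7 members that differed between KO and WT over the 3 treatments, 1 point per treated library, with WT in blue and KO in orange. Members are named by rank in WT control and chromosome. The 7 were picked by their call on these same values, so a gap between the genotypes is no further support.

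Between treatments, over both genotypes, limma called 0 genes and edgeR called 0 genes in each of the 3 comparisons. At an unadjusted p under 0.05, limma passed 37 members in mannitol minus ABA, all lower with mannitol, against 11.8% of all genes tested. It passed 42 members in dehydration minus mannitol, 30 of them higher after dehydration, against 28.5%, and 13 in dehydration minus ABA, 12 of them lower after dehydration, against 13.8%. The smallest limma adjusted p among members was 0.172, 0.114 and 0.301 in the same order. The unadjusted counts depend on the scaling. In dehydration minus mannitol, 39 members passed with median-of-ratios scaling and 41 with TMM, 37 of them higher in each (19.8% and 19.6% of all genes tested passed). In dehydration minus ABA, 3 members passed with each scaling, 2 of them lower (6.75% and 6.76% of all genes tested passed). With 1 library left out, mannitol minus ABA called 25 members without WT dehydration, 22 without KO mannitol and 24 without KO dehydration, and dehydration minus mannitol called 32 without KO mannitol. These fits called 0.595%, 3.76%, 0.545% and 19.1% of all genes tested in the same order.

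Against WT control, where the choice of members enters directly, the counts are given as a description alone. With ABA, 38 members lay 2-fold or more above WT control and 10 below on the deposited scale, as did 16.7% and 11.0% of all genes tested. That split turned to 3 higher and 26 lower with reads scaled to the library total, where 6.99% and 33.6% of all genes tested were, and to 24 and 12 with TMM, where 13.6% and 13.8% were. With mannitol 4 were higher and 39 lower, against 21.2% and 6.68% of all genes tested. After dehydration 9 were higher and 33 lower, against 10.3% and 20.6%. Phpat.010G069200 had 41682 reads in WT control, 128451 with ABA and 120353 after dehydration, and was the largest difference upwards in both, at 5.16-fold and 3.68-fold. Phpat.019G021700 was 74.8-fold lower with mannitol (31951 against 542 reads), and Phpat.005G048500 was 38.2-fold lower after dehydration (36296 against 745).

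In untreated tissue, 18 members were 2-fold or more above WT in KO and 3 below, against 9.14% and 3.22% of all genes tested. The split was 5 and 3 with TMM (4.32% and 5.25% of all genes tested), 4 and 3 with median-of-ratios scaling (4.09% and 5.46%), and 2 and 4 with reads scaled to the library total (2.77% and 7.53%). Phpat.019G072400, the last gene of the list, had 111721 reads in KO control against 28655 in WT control, or 0.340% against 0.110% of the reads, and was 4.46-fold higher by deposited value. Phpat.020G059400 was 9.70-fold lower, with 3305 reads against 36664.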

How the data were processed

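Per the labels' protocols, polyadenylated RNA was reverse transcribed with random primers, and RNA of 3 biological replicates was bulked per library. Tools named without versions, per the submitters' processing notes, are TopHat2, Trimmomatic, FastQC, bedtools and SAMtools. The normalization, the counting and its use of strand are not given in the sources used here. The deposited normalized abundance is a signal per gene and library. Each value was a whole multiple of 1 step per library (100% within 0.01 read), and division by it gave whole reads. Gene positions and older V1.6 models (18716 genes) come from the deposited annotation (Phytozome v10, build V3.0), and 0 IDs matched the RefSeq gene table.

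Genes with a mean value of at least 20 over the 8 libraries were tested (19821, with 6789 left out), and all 100 members were among them. Differences are on log2(value + 10), which understates those of low genes. limma 3.58.1 (trend, two-sided, Benjamini-Hochberg over all genes tested) gave the test. Its p-values rest on the residual of treatment plus genotype over libraries of pooled RNA. That residual holds genotype-by-treatment differences and library noise together, since no group has replicate libraries. Fold intervals are exact and cover counting error only. Scalings by TMM (edgeR 4.0.16) and by median-of-ratios size factors (DESeq2 1.42.0) served as alternatives, as did other lists, pseudocounts, filters and left-out libraries. The edgeR quasi-likelihood test on recovered reads kept the deposited scaling, not TMM. The fit was tested on simulated data. The members, groups and tests were chosen with earlier results of these data known. Genes named are the 10 highest, the 2 largest and 2 smallest differences per comparison, the 2 strongest calls each way, the list's boundary, the 3 widest and 3 narrowest ranges and the 3 near-equal pairs with most reads, with those in opposite directions in WT and KO and overlapping partners added after their values were seen.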

Additional observations from a re-analysis of the deposited data

Results flagged for a closer look

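Differences in opposite directions in WT and KO were taken at 2-fold or more each, against the control of the same genotype, on the deposited scale. They were found for 6 members with ABA, 1 with mannitol and 0 with dehydration, against 1.54%, 1.13% and 0.883% of all 19821 genes tested. The difference between the genotypes was not tested, since each side rests on 2 libraries, and WT control chose the members.

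Phpat.014G088900 (rank 25) had 78152 reads in WT control, 109404 with ABA and 227096 with mannitol, and in KO 68830, 35689 and 24628. On log2(value + 10) it was 1.23 higher with ABA in WT and differed by -1.17 in KO, and it was 1.19 higher with mannitol in WT and differed by -2.13 in KO. As a share of reads it took 0.299% in WT control, 0.365% with ABA and 0.629% with mannitol. Its KO shares were 0.209%, 0.0921% and 0.0691% in the same order. With median-of-ratios scaling and with TMM, 0 members lay 2-fold or more above WT control with mannitol. The highest member differences there were 0.70 and 0.73 in log2, so the mannitol difference of Phpat.014G088900 in WT was under the 2-fold limit.

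The other 5 were the chromosome 16 block with ABA, 4 of which have near-equal reads and are not independent. Phpat.016G058600 differed by 1.07 in WT and -2.73 in KO. Phpat.016G058700 differed by 1.07 and -2.73, Phpat.016G058500 by 1.07 and -2.73, Phpat.016G058800 by 1.07 and -2.73, and Phpat.016G058400 by 1.08 and -2.73. As a share of reads the WT side was small: Phpat.016G058600 took 0.182% in WT control and 0.198% with ABA, against 0.259% and 0.0388% in KO. The WT side of these 5 genes lies just above the 2-fold limit on the deposited scale, where the median member was 0.51 above WT control with ABA. With median-of-ratios scaling that median was 0.31, and with TMM it was 0.32. Rescaling shifts abundant genes of 1 comparison nearly alike, so the WT side of these 5 genes would fall under the 2-fold limit with both. The full count of opposite differences was not repeated with those scalings.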

How the results depend on the processing

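No paired analysis was possible because each group is 1 library and the labels carry no replicate numbers. No call changed its sign under an alternative. For single values at least 2-fold apart a change of sign was not possible, so their signs are no check. Pseudocounts cannot change a sign, and each scaling moved a comparison by less than 2-fold. The balance of higher and lower members turned in WT ABA and in KO against WT with ABA, as given below. It also turned in KO against WT after dehydration (median-of-ratios and TMM), with mannitol (without the blocks), and in KO control against WT control (library total). By construction, the list's share of reads moves with the list. For the 50 highest genes it was 28.3%, 25.95%, 16.2% and 23.7% in WT control, ABA, mannitol and dehydration, and 27.5%, 26.9%, 16.3% and 22.1% in KO. For the 200 highest it was 42.8%, 35.7%, 26.7% and 33.6% in WT, and 42.5%, 38.2%, 26.7% and 35.0% in KO. For the 100 highest of KO control it was 34.2%, 30.2%, 21.7% and 27.5% in WT, and 36.0%, 32.7%, 22.4% and 29.4% in KO. For genes ranked per kb of span it was 32.7%, 29.9%, 18.8% and 25.8% in WT, and 32.2%, 29.5%, 18.8% and 25.6% in KO. With near-equal genes counted once in list and total, and the list filled up to 100 genes, it was 33.0%, 28.1%, 21.6% and 25.5% in WT, and 33.4%, 29.8%, 21.01% and 25.8% in KO. For the 76 members outside the chromosome 20, 26 and 13 blocks, as a share of the reads outside those blocks, it was 17.04%, 12.7%, 12.1% and 12.4% in WT, and 17.4%, 12.7%, 10.5% and 13.2% in KO. On these denominators both mannitol shares were below the other 6 in each of the 6 lists, but as a share of all reads the 76 members took 10.8% in WT mannitol, above 10.0% in WT ABA, 10.0% in WT dehydration and 9.79% in KO ABA.

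KO minus WT called 0 members and 0 genes with no filter on low values, and 4 members and 1073 genes with all 8 libraries. With each library left out in turn it called 2 to 12 members and 714 to 6160 of all genes, with the most without WT mannitol. Over the same settings mannitol minus ABA called 0 to 25 members and 0 to 746 genes, dehydration minus mannitol 0 to 32 members and 0 to 3791 genes, and dehydration minus ABA 0 and 0. A lone library of a treatment is then assumed to vary like the others.

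Counts of members 2-fold apart moved by over 1.5 times as follows, and the cause was not tested. Counts without the blocks are of 76 members, so they shrink by construction. KO ABA against KO control had 0 higher per kb of span, with median-of-ratios scaling and with TMM. KO against WT with ABA had 5 higher and 39 lower per kb, and 25 and 15 with reads scaled to the library total. KO against WT with mannitol had 5 higher without the blocks and 17 lower per kb. KO against WT after dehydration had 14 higher with median-of-ratios, 16 with TMM, and 9 lower in the KO control list. WT ABA against WT control had 19 higher without the blocks (25.0% of 76), 24 with median-of-ratios, 24 with TMM, and 3 higher with 26 lower at the library total. WT mannitol had 0 higher with median-of-ratios and with TMM, and 20 lower without the blocks (26.3% of 76), and WT dehydration had 5 higher per kb. KO control against WT control had 31 higher and 0 lower in the KO control list, 4 higher with median-of-ratios, 5 with TMM, 2 at the library total, and 7 lower per kb. Blocks numbered 20, with 59 members, at a gap of 50 kb, and 21, with 75, at 200 kb. The block left-out list, the library-total scaling and these gaps were chosen after seeing the data. Among the single genes named, 30 tests lost their call under an alternative with the same direction. Counting error is small for these genes, and the lowest count given is 30 reads.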
